A study of Mus musculus with 29 samples.

Results

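The genes described here encode the actin cytoskeleton and the contractile apparatus of fibroblasts: actins, calponins and transgelins, tropomyosins and caldesmon, nonmuscle myosins, actin crosslinkers, focal adhesion proteins, LIM domain proteins, the intermediate filament protein vimentin, and the transcription factor SRF. A list of 34 genes was drawn up by name and matched to the Ensembl identifiers of the count table. Of these, 31 were among the 11959 genes of the table, and Cnn1, Myl9 and Ankrd1 were not analysed here. RNA-seq was performed on 3T3-L1 cells, a mouse preadipocyte line that is grown to confluence and then induced to form white adipocytes in culture. The cells received 10 µM KDM5-C70 (C70), an inhibitor of the KDM5 histone demethylases, or DMSO (vehicle) from day -2, when they were confluent, until day 0. They were in preadipocyte medium until day 0, in differentiation medium between days 0 and 2 and in adipocyte medium thereafter. C70 was thus not added after day 0, and whether any remained in the cells at days 1, 2 and 7 is not known. There were 3 vehicle samples and 4 C70 samples for day 0, as for day 1 and for day 2, and day 7 had 4 samples per treatment, which makes 29 samples in 8 groups. The labels do not say whether replicates came from separate cultures, so P values measure only the spread between these samples, which may be technical.

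Actin filaments in fibroblasts are crosslinked by alpha-actinin and filamin, coated by tropomyosins and caldesmon, pulled on by nonmuscle myosin, and anchored at focal adhesions through talin, vinculin, zyxin and paxillin. Many of the genes for these proteins are known targets of SRF, which binds the CArG box and is activated together with MRTF cofactors when the pool of free actin monomers is low. Preadipocytes are spread, fibroblast-like cells with stress fibers, and the rounding of cells and loss of stress fibers is a known part of adipogenesis. The list was assembled around genes known to be lost in this process, so a fall during differentiation is not independent evidence about it.

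Total counts ranged from 16320275 to 24037170 per sample. Levels are given as CPM, which is a count per 1000000 of the effective size of its library, and the level between genes is compared only as CPM per kb of annotated exon. All samples were annotated as adipocytes in the labels, at day 0 as well. The summed level of 7 adipocyte markers ranged from 1290 to 1412 CPM in day 0 vehicle samples and from 21460 to 24590 CPM in day 7 vehicle samples, and Adipoq, which encodes the adipocyte hormone adiponectin, was at 0.283 ± 0.11 CPM (SD, n = 3) and 1340.0 ± 189 CPM (SD, n = 4). None of the 6 skeletal and cardiac muscle markers and none of the 4 endothelial markers were among the genes analysed. Among the day 7 vehicle samples, replicate 1 stood apart from the other 3 in 6 of the 31 genes, and among the day 7 C70 samples replicate 2 was the lowest for Flna and Cald1. Genes whose day 7 calls changed without these libraries are therefore named.

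The CArG box is the DNA element bound by SRF, and its occurrence near the start sites is shown because SRF is the regulator best known for these genes. RefSeq promoter windows (GRCm38.p6, 250 bases before to 50 bases after the start) could be matched to 27 of the 31 genes and to 9007 of all genes tested. An exact box of 10 bases, which is CC, then 6 bases of A or T, then GG, and which reads as the same kind of box on either strand, was present in the windows of 5 of the 27 genes (18.5%) and 139 of the 9007 genes (1.54%). With 1 mismatch allowed within the central bases, the counts were 8 (29.6%) and 941 (10.4%). The genes added were Acta2, Tpm3 and Myl12a. A match is a description of the sequence and not evidence that SRF binds there. The list was chosen as SRF-type fibroblast genes and holds Srf itself, which favors a higher share than over all genes. The difference in shares is therefore not independent evidence about these genes. The 30 bases around each exact box, and around the mismatched boxes of Acta2, the gene with the largest fall in vehicle, are printed below on the strand of the gene, with the box in capitals.
Cnn2, chr10:79988534-79988563, plus strand: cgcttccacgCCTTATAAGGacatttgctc
Myl6, chr10:128493040-128493069, minus strand: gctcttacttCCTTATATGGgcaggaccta
Actg1, chr11:120348566-120348595, minus strand: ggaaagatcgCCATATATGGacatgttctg
Vcl, chr14:20929161-20929190, plus strand: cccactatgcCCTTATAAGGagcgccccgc
Srf, distal box, chr17:46556225-46556254, minus strand: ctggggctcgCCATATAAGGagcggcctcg
Srf, proximal box, chr17:46556205-46556234, minus strand: agcggcctcgCCATAAAAGGaaacattgta
Acta2, distal box, chr19:34255438-34255467, minus strand: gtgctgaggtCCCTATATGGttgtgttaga
Acta2, proximal box, chr19:34255388-34255417, minus strand: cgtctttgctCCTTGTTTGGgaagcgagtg
The 5 genes with an exact box did not share a response to C70: Cnn2 was called higher at days 1, 2 and 7, Actg1 was called higher at day 2 only, Vcl was called lower at day 2, and Myl6 and Srf were not called on any day.

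In undifferentiated vehicle cells at day 0, levels per kb of exon spanned from 1195 ± 33.1 CPM per kb for Actb, the major cytoplasmic actin, down to 8.86 ± 1.39 CPM per kb for Tagln (SD, n = 3). After Actb came Vim, the intermediate filament protein of mesenchymal cells, at 545 ± 17.99 CPM per kb, and Cfl1, the actin-severing protein cofilin, at 312 ± 10.4 CPM per kb. Acta2, the smooth muscle alpha-actin of myofibroblasts, was next at 244 ± 24.5 CPM per kb. The levels of Tpm4, Pfn1 and Flna followed at 196 ± 13.2, 188 ± 7.54 and 180.2 ± 10.9 CPM per kb and the gap between neighbors in this order was smaller than the larger of their SDs. Srf itself stood near the bottom of the order with 16.2 ± 1.46 CPM per kb.

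During differentiation of vehicle cells most of the 31 genes fell, and most of them had done so after the first day. At day 1, 28 of the 31 genes (90.3%) were called lower than at day 0 and 1 was called higher. A call means a log2 fold change beyond 0.32 in either direction and an adjusted P value under 0.05. The P value is from edgeR's quasi-likelihood test, adjusted over all genes. SE, or standard error, below is an approximation. It is the absolute log2 fold change divided by the square root of the F statistic of that test. Over all genes tested 27.9% were called lower and 26.2% higher. The median log2 fold change of the 31 genes was -1.24, beside 0.0082 over all genes. From day 1 to day 2 a further 18 genes (58.1%) were called lower and 2 higher, with 22% and 22.3% over all genes. Between days 2 and 7 the direction was mixed, with 12 genes called higher and 8 lower, beside 26.6% and 26.7% of all genes. Across the whole course from day 0 to day 7, 27 genes (87.1%) were called lower and 0 higher, beside 36.7% in each direction over all genes, and the median log2 fold change of the 31 was -1.65. Together the 31 genes held 1.94% ± 0.065 of all counts at day 0 (SD, n = 3), 0.900% ± 0.0076 at day 1 (SD, n = 3), 0.611% ± 0.00485 at day 2 (SD, n = 3) and 0.645% ± 0.0162 at day 7 (SD, n = 4) in vehicle samples. In these bulk samples, fewer cells of a type and less RNA per cell cannot be told apart.

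**Figure D1:**
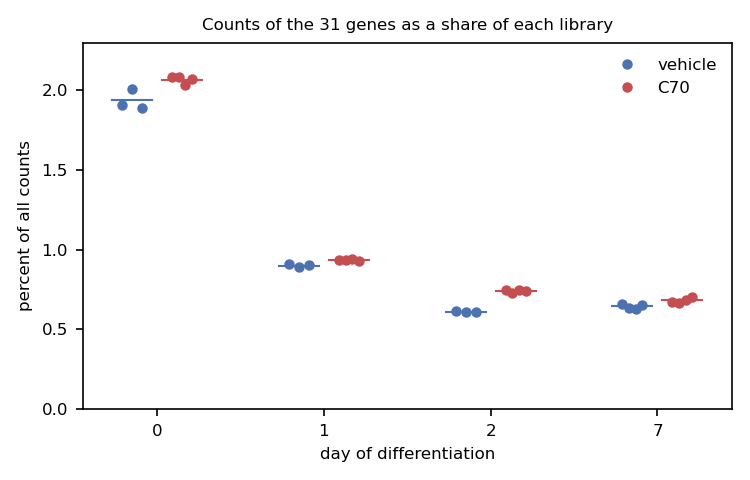
Summed counts of the 31 genes as a percent of all counts in each library (vertical axis, starting at 0) against the day of differentiation, with vehicle in blue and C70 in red, a point per library and a bar at each group mean. The share was 1.94% in vehicle at day 0 and 0.611% at day 2, where the C70 samples averaged 0.740%.

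Acta2 (chr19:34241090-34255590, minus strand) showed the largest fall. Its level was 519, 595 and 492 CPM in the vehicle samples of day 0, 5.43, 3.80 and 3.77 CPM at day 1, 1.35, 1.35 and 1.53 CPM at day 2 and 16.1, 5.69, 7.15 and 5.97 CPM at day 7. Every later sample was below every day 0 sample, and the day 7 values were again above those of day 2. The day 7 to day 0 comparison gave a log2 fold change of -5.95 (SE 0.184, adjusted P = 2.08e-23), and the rise from day 2 to day 7 a log2 fold change of 2.62 (SE 0.33, adjusted P = 3.17e-08). Tpm1, a tropomyosin that stabilizes stress fibers, fell from 527 ± 17.6 CPM at day 0 to 51.6 ± 0.443 CPM at day 1 (SD, n = 3) and was at 37.3 ± 5.42 CPM at day 7 (SD, n = 4). For Cnn2, an actin-binding calponin, the fall was from 404 ± 16.98 to 24.1 ± 0.128 CPM within the first day (SD, n = 3), with a log2 fold change of -4.07 (SE 0.123, adjusted P = 8.06e-23). Tagln, the calponin family protein transgelin, was low in the cells at the outset, at 17.6 ± 2.76 CPM, and was at 1.13 ± 0.251 CPM at day 1 (SD, n = 3).

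The time courses differed in shape. Of the 31 genes, 28 had their highest vehicle mean at day 0, while the lowest mean fell at day 1 for 5 genes, at day 2 for 10 and at day 7 for 16. Steady decline through day 7 was seen for Tagln2, with vehicle levels of 211 ± 12.8, 168 ± 9.10, 84.8 ± 5.63 and 33.7 ± 4.20 CPM at days 0, 1, 2 and 7 (SD, n = 3 and, at day 7, 4, as in the rest of this paragraph). Cald1, which encodes caldesmon, an inhibitor of actomyosin that binds actin and tropomyosin, declined in the same manner through 1350.0 ± 13.7, 952 ± 48.7, 405 ± 13.6 and 219.6 ± 15.2 CPM. In contrast, Actb dipped to 1022 ± 36.7 CPM at day 2 and was at 2038 ± 91.4 CPM at day 7, from 3201 ± 88.7 CPM at day 0. Csrp1, a LIM protein of actin bundles, dipped from 107 ± 6.17 to 19.1 ± 0.848 CPM and recovered to 72.4 ± 8.17 CPM, a rise of 1.92 on the log2 scale between days 2 and 7 (SE 0.0768, adjusted P = 9.17e-20). Csrp2, its relative in smooth muscle and mesenchymal cells, was the only gene of the 31 called higher at day 1 than at day 0 and is described for that reason, with 22.8 ± 0.448 CPM at day 0 and 37.3 ± 1.54 CPM at day 1 (SD, n = 3). It then fell to 10.4 ± 1.61 CPM at day 2 (SD, n = 3), with a log2 fold change of -1.85 (SE 0.101, adjusted P = 4.23e-16) against day 1.

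At day 7, 4 genes were not called against day 0 in vehicle. Myh10, the heavy chain of nonmuscle myosin IIB, had the smallest change. Its vehicle values were 263, 280.3 and 265 CPM at day 0, 105, 106 and 106 CPM at day 1, 167, 173 and 166 CPM at day 2 and 244, 337, 319 and 282 CPM at day 7. Thus its level was low at day 1 and at day 7 overlapped that of day 0, with a log2 fold change of 0.13 (SE 0.0678, adjusted P = 0.0712). Myl6, an essential light chain of nonmuscle myosin, gave a day 7 to day 0 log2 fold change of 0.18, Srf one of -0.18 and Actn4, a nonmuscle alpha-actinin, one of -0.30, all with fold changes under the limit. Srf was at 47.02 ± 4.22 CPM in vehicle at day 0, 29.7 ± 0.986 CPM at day 1, 28.98 ± 2.33 CPM at day 2 (SD, n = 3) and 41.4 ± 1.32 CPM at day 7 (SD, n = 4).

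**Figure D2:**
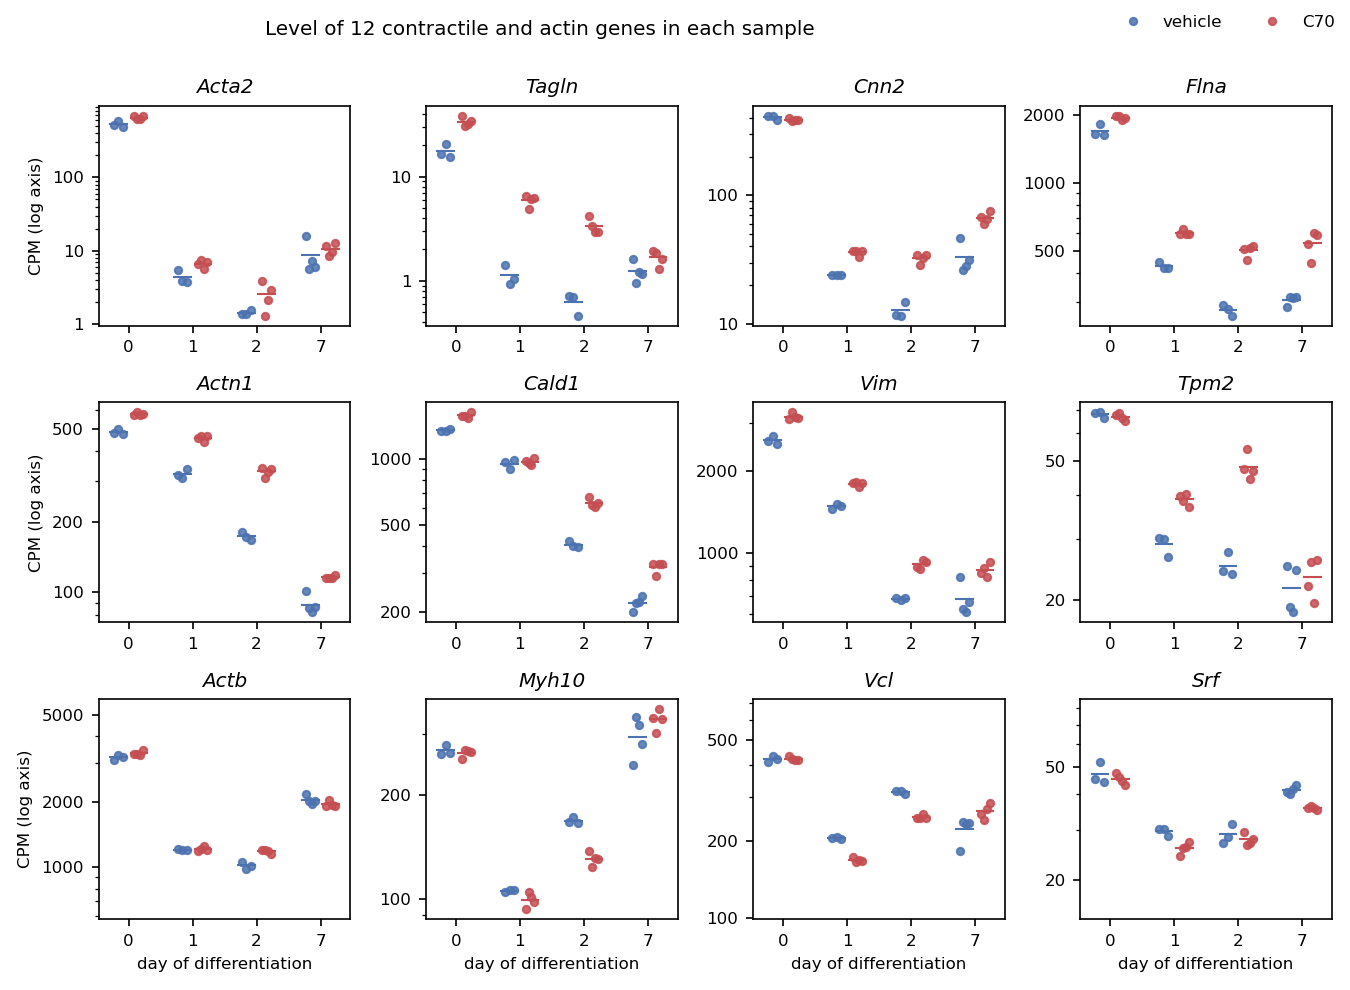
Level of 12 of the genes in each sample (CPM, log axis that differs between panels) against the day of differentiation, with vehicle in blue and C70 in red, a point per sample and a bar at each group mean. Acta2 lies between 492 and 692 CPM at day 0 and under 17 CPM later, whereas the day 7 samples of Myh10 overlap those of day 0, and the C70 samples of Flna, Actn1 and Cnn2 lie above the vehicle samples at days 1, 2 and 7.

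At day 2, after treatment with C70 had ended, treated cells held more of these transcripts than vehicle cells. On the other days fewer genes were called and the median difference was smaller. At day 0, at the end of treatment, 2 of 31 genes (6.45%) were called higher with C70 and 0 lower, which is near the background of 5.89% higher and 3.09% lower over all genes. At day 1, 7 genes (22.6%) were called higher and 0 lower, beside 13.6% and 7.8% of all genes. At day 2, 14 genes (45.2%) were called higher and 2 (6.45%) lower, beside 16.9% and 13.6% of all genes, and the median log2 fold change of the 31 genes was 0.32, beside -0.0036 over all genes. At day 7, 6 genes (19.4%) were called higher and 0 lower, beside 14.3% and 4.85% of all genes, with a median of 0.17 beside 0.0038. The medians at days 0 and 1 were 0.05 and 0.07, and the share of higher calls at day 7 was not far above that of all genes. In total 16 of the 31 genes were called on at least 1 day, of which 14 were higher, and 10 were called higher on more than 1 day. The other 15 were not called on any day. These totals over days were not counted for all genes, so no background share stands beside them and they are descriptions only. At day 2 every C70 sample lay above every vehicle sample for 21 of the 31 genes and below for 5, beside 28.2% and 29% of all genes.

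**Figure D3:**
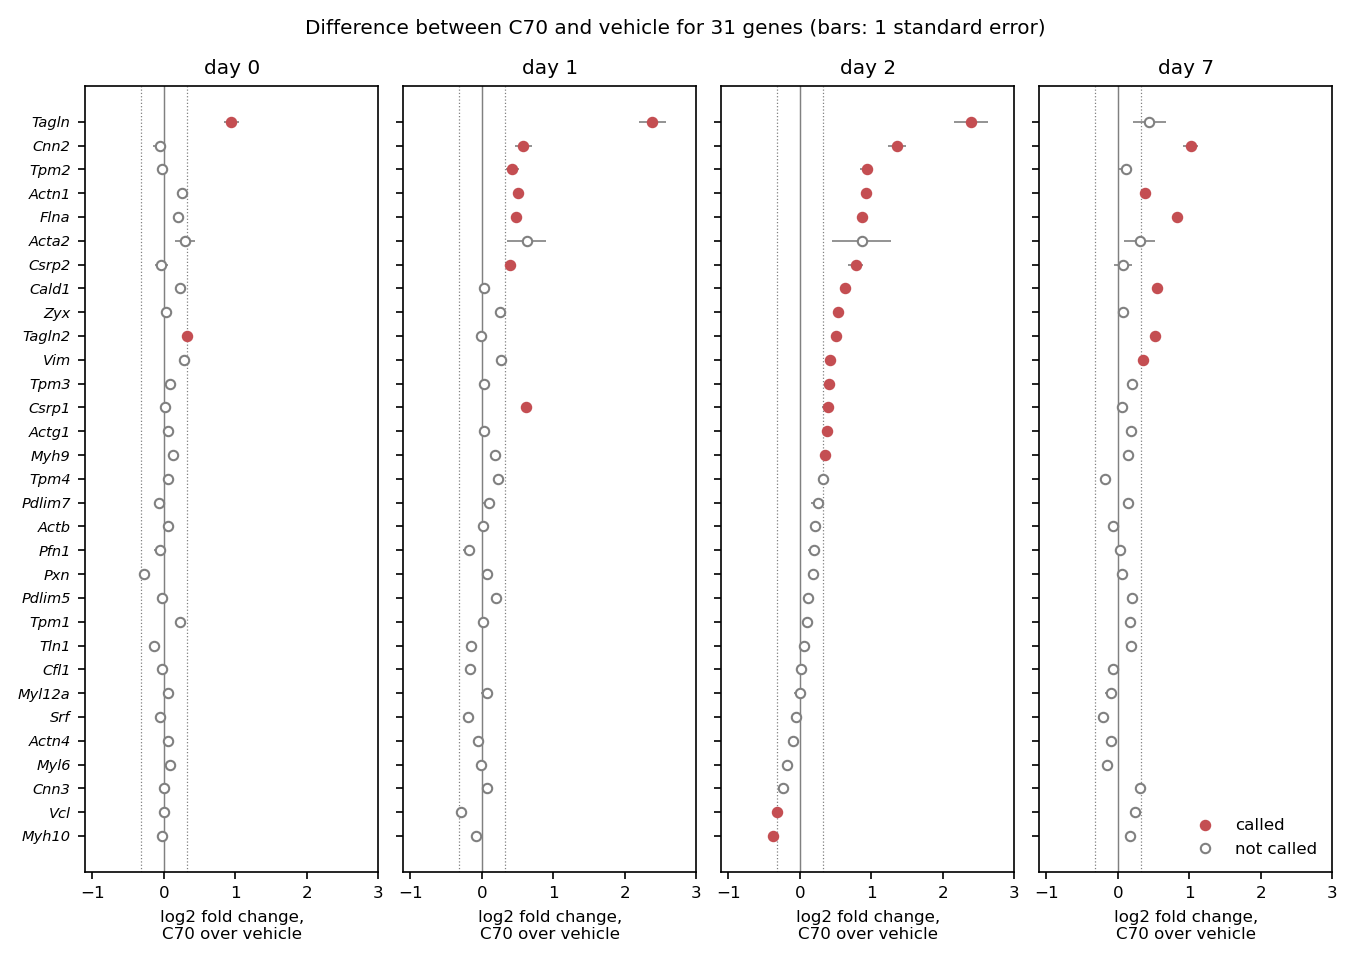
Log2 fold change of C70 over vehicle (horizontal axis) for the 31 genes at each day, in the order of their value at day 2, with bars of 1 standard error. Filled points passed both the adjusted P value and the fold change limit, which the dotted lines mark, and there are 2, 7, 16 and 6 of them in the panels from left to right.

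Among the 3 actins, Actg1, the cytoplasmic gamma-actin, was the only gene called. At day 2 it measured 85.5, 81.8 and 81.4 CPM in the vehicle samples and 113, 106, 106 and 108 CPM in the C70 samples. All 4 C70 samples were above all 3 vehicle samples, with a log2 fold change of 0.38 (SE 0.0421, adjusted P = 5.62e-09). At days 0, 1 and 7 its log2 fold changes were 0.05, 0.03 and 0.18. Actb gave 0.22 at day 2 (SE 0.0407, adjusted P = 4.44e-05), under the fold change limit, and values between -0.06 and 0.06 on the other days. Coding sequences of the actins are close to each other, so reads could be split between them in a way that the deposited counts do not show.

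Acta2 was not called on any day in the fit of all 8 groups, although its C70 means were above its vehicle means on each. At day 0 the C70 samples measured 692, 628, 626 and 678 CPM, against the vehicle values given above, and the groups did not overlap. Later the C70 values were 6.52, 7.48, 5.69 and 7.01 CPM at day 1, 3.84, 1.29, 2.15 and 2.87 CPM at day 2 and 11.6, 8.46, 9.64 and 12.8 CPM at day 7. At day 2 and day 7 the 2 groups overlapped, through a C70 sample of 1.29 CPM at day 2 and the vehicle sample of 16.1 CPM at day 7. The log2 fold changes at days 0, 1, 2 and 7 were 0.29, 0.63, 0.87 and 0.30, with standard errors of 0.142, 0.271, 0.416 and 0.214. Without replicate 1 of the day 7 vehicle samples the day 7 value was 0.77 (adjusted P = 0.000151), and the values of 0.63 at day 1 (adjusted P = 0.00361) and 0.88 at day 2 (adjusted P = 0.00864) were then also called. Day 1 was called, too, without replicate 1 of the day 1 vehicle samples (0.82) or replicate 2 of the day 7 vehicle samples (0.63), and day 2 without replicate 2 of the day 2 C70 samples (1.08). With no library left out, fits of the groups of the comparison alone called day 1 (0.63, adjusted P = 0.00154) and day 2 (0.87, adjusted P = 0.00986), as they did with a replicate block (0.61, adjusted P = 0.00279, and 0.75, adjusted P = 0.0109). DESeq2 called day 2 (0.84, adjusted P = 0.0304).

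The largest log2 fold changes of the 31 genes at day 2 belonged to Tagln and Cnn2, of the calponin family. Tagln (chr9:45929619-45936058, minus strand) lay below the level at which single genes were to be described by sample, and its values are given because its difference was the largest, so it was singled out after its values were seen. At day 0 its level was 16.6, 20.7 and 15.5 CPM in vehicle and 38.4, 30.7, 32.1 and 34.1 CPM with C70. At day 1 it was 1.41, 0.939 and 1.04 CPM in vehicle and 6.58, 4.92, 6.10 and 6.28 CPM with C70. At day 2 it was 0.72, 0.696 and 0.46 CPM in vehicle and 4.22, 3.37, 2.93 and 2.92 CPM with C70. On each of these days the groups were apart, by 1.93-fold at day 0, 5.24-fold at day 1 and 5.27-fold at day 2. The log2 fold changes were 0.95 (SE 0.103, adjusted P = 3.83e-08) at day 0, 2.39 (SE 0.19, adjusted P = 1.84e-11) at day 1 and 2.40 (SE 0.239, adjusted P = 8.14e-10) at day 2. By day 7, with 1.63, 0.958, 1.23 and 1.15 CPM in vehicle and 1.93, 1.83, 1.31 and 1.64 CPM with C70, the groups overlapped and the log2 fold change was 0.44 (SE 0.229, adjusted P = 0.126). Tagln overlaps Pcsk7 on the opposite strand. Vcl, Zyx, Tln1, Actn1, Actn4, Cald1, Cfl1, Cnn3, Tpm4, Srf and Myl12a likewise overlap other annotated genes on the opposite strand. The strand setting of the counting is not given in the sources used here.

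Cnn2 (chr10:79988584-79996062, plus strand), which has an exact CArG box in the window printed above, was called at days 1, 2 and 7. At day 0 it measured 415, 411 and 384 CPM in vehicle and 398, 379.8, 385 and 387 CPM with C70, which overlapped, with a log2 fold change of -0.06. At day 1 the values were 24.1, 24.2 and 23.9 CPM and 36.9, 36.6, 33.2 and 37.03 CPM. At day 2 they were 11.7, 11.5 and 14.9 CPM and 34.1, 28.9, 32.6 and 34.1 CPM. At day 7 they were 46.3, 26.1, 28.1 and 31.5 CPM and 67.8, 59.3, 65.1 and 74.8 CPM. The vehicle level thus fell from day 1 to day 2 while the C70 level stayed near its day 1 value, and at day 7 both levels were above those of day 2, with all C70 samples again above the vehicle samples. The fitted log2 fold changes were 0.58 (SE 0.118, adjusted P = 0.000207) at day 1, 1.36 (SE 0.129, adjusted P = 3.06e-10) at day 2 and 1.02 (SE 0.104, adjusted P = 2.43e-09) at day 7.

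Tagln2, the transgelin of nonmuscle cells, was called at days 0, 2 and 7. Its day 2 level was 88.7, 78.3 and 87.3 CPM in vehicle and 117, 121, 122 and 124 CPM with C70, and its day 7 level 39.5, 31.5, 29.8 and 33.99 CPM in vehicle and 46.3, 49.7, 49.2 and 47.2 CPM with C70. The groups did not overlap on either day, with log2 fold changes of 0.51 (SE 0.0613, adjusted P = 2.96e-08) and 0.52 (SE 0.0626, adjusted P = 7.86e-08). At day 0 it measured 208, 225 and 199 CPM in vehicle and 264, 265, 266 and 261 CPM with C70. The day 0 value of 0.33 (SE 0.0587, adjusted P = 0.000136) was just above the fold change limit and fell below it when any of 4 libraries was left out, namely replicate 1 (0.32) or 3 (0.29) of the day 0 vehicle samples, replicate 3 of the day 0 C70 samples (0.32) or replicate 1 of the day 1 C70 samples (0.32). The same held under quantile normalization (0.28), without the genes of lowest mean count (0.32) and in a fit of the day 0 groups alone (0.32). At day 1 the log2 fold change was -0.01 (SE 0.0591) and the groups overlapped. The remaining calponin, Cnn3, gave -0.00, 0.07, -0.23 and 0.32 at days 0, 1, 2 and 7. Its day 7 value was under the limit with all samples and over it, at 0.39, without replicate 1 of the vehicle samples, and at 0.38 without replicate 3 of the C70 samples.

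Tropomyosins form the cables that line actin filaments, and 2 of the 4 tropomyosin genes were called higher with C70. Tpm2 was called at days 1 and 2. At day 1 it measured 30.1, 30.01 and 26.6 CPM in vehicle and 39.8, 38.4, 40.3 and 36.98 CPM with C70, and at day 2 24.2, 27.5 and 23.7 CPM in vehicle and 47.3, 53.99, 44.5 and 46.98 CPM with C70. The lowest C70 sample was above the highest vehicle sample on both days, with log2 fold changes of 0.43 (SE 0.0885, adjusted P = 0.00026) and 0.94 (SE 0.089, adjusted P = 3.12e-10). At day 7 the Tpm2 groups overlapped and the value was 0.11 (SE 0.0899). Tpm3 was called at day 2, when it measured 71.9, 69.4 and 67.8 CPM in vehicle and 95.5, 94.04, 93.5 and 88.8 CPM with C70, a log2 fold change of 0.41 (SE 0.0514, adjusted P = 5.67e-08) without overlap. Tpm4 gave 0.32 at day 2 (SE 0.0512, adjusted P = 4.33e-06), just under the fold change limit, and -0.19 at day 7. The day 2 value was over the limit without replicate 1 of the day 1 C70 samples, replicate 3 of the day 2 vehicle samples, replicate 3 or 4 of the day 2 C70 samples, replicate 1 of the day 7 vehicle samples or replicate 2 of the day 7 C70 samples (0.33 to 0.35), and in fits under quantile normalization (0.32), without the genes of lowest mean count (0.33) or of the day 2 groups alone (0.33). For Tpm1, which had fallen the most of the 4 in vehicle, the log2 fold changes were 0.23, 0.02, 0.10 and 0.18 at the 4 time points.

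Cald1 (chr6:34598500-34775473, plus strand) was called at days 2 and 7. Its level at day 2 was 420.4, 399.8 and 395 CPM in vehicle and 673, 614, 604 and 631 CPM with C70, and at day 7 199, 220.1, 223 and 236 CPM in vehicle and 333, 293, 331 and 331 CPM with C70. Groups were apart on both days, with log2 fold changes of 0.64 (SE 0.0525, adjusted P = 1.4e-11) at day 2 and 0.55 (SE 0.0487, adjusted P = 1.49e-10) at day 7. At day 1 the same gene measured 967, 898 and 992 CPM in vehicle and 977, 955, 939 and 1005 CPM with C70, which overlapped and gave a log2 fold change of 0.03 (SE 0.0514).

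The myosin genes went in different directions. Myh9, the heavy chain of nonmuscle myosin IIA, was called higher at day 2, with 474, 472 and 438 CPM in vehicle and 594, 566, 597 and 598 CPM with C70 and a log2 fold change of 0.35 (SE 0.0599, adjusted P = 1.2e-05). All its C70 samples were above the vehicle samples, but the fold change dropped under the limit, to a log2 value of 0.32, without replicate 3 of the day 2 vehicle samples. Myh10, in contrast, was called lower at day 2, with 167, 173 and 166 CPM in vehicle and 137, 124, 132 and 130.3 CPM with C70 and a log2 fold change of -0.37 (SE 0.0689, adjusted P = 4.2e-05). Here all C70 samples were below the vehicle samples. In vehicle Myh10 rose from day 1 to day 2 by 0.68 on the log2 scale, and its C70 level at day 2 lay between the vehicle levels of days 1 and 2. The light chain genes Myl6 and Myl12a were not called on any day, with values from -0.17 to 0.09 and from -0.10 to 0.07. Myl12a shares sequence and an overlap on the same strand with Myl12b, so its counts are uncertain.

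The crosslinker genes Flna and Actn1 were called higher with C70 at days 1, 2 and 7. Flna (chrX:74223461-74249820, minus strand) encodes filamin A, which joins filaments into networks. At day 1 it measured 449.8, 425 and 424 CPM in vehicle and 596, 627, 599 and 596 CPM with C70. At day 2 it measured 291, 278 and 260.2 CPM in vehicle and 514, 458, 518 and 531 CPM with C70. At day 7 it measured 285, 315, 311 and 316 CPM in vehicle and 541, 444, 605 and 589 CPM with C70. On these 3 days no C70 sample overlapped the vehicle samples, and the C70 level at day 7 was close to that at day 2. The log2 fold changes were 0.48 (SE 0.0698, adjusted P = 1.73e-06), 0.87 (SE 0.0709, adjusted P = 1.2e-11) and 0.83 (SE 0.0647, adjusted P = 1.17e-11) in this order, after 0.20 at day 0 (SE 0.0687, adjusted P = 0.0393), which was under the fold change limit.

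Actn1 (chr12:80167547-80260371, minus strand), the alpha-actinin of stress fibers and adhesions, was likewise called at days 1, 2 and 7. Values at day 1 were 317, 307 and 336 CPM in vehicle and 456, 467, 438 and 465 CPM with C70, and at day 2 181, 172 and 167 CPM in vehicle and 340.0, 308, 328 and 338 CPM with C70. At day 7 they were 100.5, 85.1, 81.7 and 85.95 CPM in vehicle and 115, 114, 114 and 118 CPM with C70. Again the groups were apart on each day, although both treatments declined from day 1 to day 7. The log2 fold change was 0.51 (SE 0.0507, adjusted P = 1.62e-09) at day 1, 0.92 (SE 0.0518, adjusted P = 2.89e-15) at day 2 and 0.39 (SE 0.049, adjusted P = 1.75e-07) at day 7. At day 0 it was 0.25 (adjusted P = 0.000383), under the fold change limit. Its paralog Actn4 was not called on any day and kept within -0.10 and 0.06.

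Of the 4 focal adhesion genes, Zyx and Vcl were called at day 2, in opposite directions. Zyx, which encodes the tension-sensitive LIM protein zyxin, measured 77.9, 74.9 and 75.97 CPM in vehicle and 114, 110.5, 104 and 112 CPM with C70, with all C70 samples higher and a log2 fold change of 0.53 (SE 0.0533, adjusted P = 9.86e-10). Vcl, which encodes vinculin, the linker between talin and actin, measured 315, 317 and 308 CPM in vehicle and 248, 248, 257 and 248 CPM with C70, with all C70 samples lower and a log2 fold change of -0.32 (SE 0.0585, adjusted P = 2.57e-05). The fold change of Vcl was near the limit, and the call was lost without replicate 1 or 2 of the day 2 vehicle samples, replicate 1, 2 or 4 of the day 2 C70 samples, replicate 1 of the day 1 C70 samples, replicate 1 of the day 7 vehicle samples or replicate 2 of the day 7 C70 samples, with log2 values between -0.32 and -0.31. It was likewise lost under quantile normalization, without the genes of lowest mean count, and in fits of the day 2 groups alone with or without a replicate block. At day 1 Vcl gave -0.29 (adjusted P = 0.000231) and at day 7 0.24 (adjusted P = 0.000884), both under the limit. Tln1, which encodes the integrin-binding protein talin, ranged from -0.15 at day 1 to 0.19 at day 7, and Pxn, the adhesion scaffold paxillin, from -0.28 at day 0 to 0.19 at day 2, with no call.

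The LIM genes Csrp1 and Csrp2 were both called higher at days 1 and 2. Csrp1 measured 24.7, 21.9 and 23.6 CPM in vehicle and 35.7, 39.3, 34.9 and 34.6 CPM with C70 at day 1, and 19.4, 18.1 and 19.7 CPM in vehicle and 25.99, 22.9, 24.1 and 26.8 CPM with C70 at day 2. Its groups were apart on both days, with log2 fold changes of 0.62 (SE 0.0768, adjusted P = 1e-07) and 0.39 (SE 0.0811, adjusted P = 0.000168). For Csrp2, a gene of low level in these cells, the means at day 1 were 37.3 ± 1.54 CPM in vehicle (SD, n = 3) and 49.2 ± 3.78 CPM with C70 (SD, n = 4), with a log2 fold change of 0.40 (SE 0.0825, adjusted P = 0.000237). At day 2 its means were 10.4 ± 1.61 CPM (SD, n = 3) and 17.7 ± 1.18 CPM (SD, n = 4), with a log2 fold change of 0.78 (SE 0.103, adjusted P = 1.82e-07). At day 7 the values of Csrp1 and Csrp2 were 0.06 and 0.07. Pdlim5 and Pdlim7, which hold PDZ and LIM domains and dock at the actin cytoskeleton, were not called, with values from -0.03 to 0.20 and from -0.07 to 0.25.

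Vim (chr2:13573927-13582826, plus strand) was called at days 2 and 7. At day 2 it measured 686, 674 and 688 CPM in vehicle and 895, 881, 943 and 931 CPM with C70, and at day 7 819, 624, 609 and 667 CPM in vehicle and 845, 887, 821 and 934 CPM with C70. The C70 samples were above the vehicle samples on both days, although at day 7 the vehicle sample of 819 CPM came within reach of the lowest C70 sample of 821 CPM. The log2 fold change was 0.42 (SE 0.0639, adjusted P = 2.13e-06) at day 2 and 0.36 (SE 0.0588, adjusted P = 1.13e-05) at day 7. The call at day 7 was lost without replicate 2 (0.32) or 3 (0.31) of the vehicle samples and under quantile normalization (0.27). At days 0 and 1 the values of 0.29 and 0.27 had adjusted P values of 0.0014 and 0.000838 but were under the fold change limit. Pfn1 and Cfl1, the profilin and cofilin that load and sever actin, stayed between -0.18 and 0.20 and between -0.17 and 0.01. Srf gave -0.05, -0.20, -0.06 and -0.21 at days 0, 1, 2 and 7, none of them called.

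Whether the C70 difference changed between consecutive days was tested by interaction contrasts. From day 0 to day 1 the difference became more positive for 6 genes and more negative for 1, beside 8.68% and 5.23% of all genes. From day 1 to day 2 it became more positive for 10 genes (32.3%) and more negative for 0, beside 7.36% and 6.49%. From day 2 to day 7 it became more positive for 3 genes (9.68%) and more negative for 7 (22.6%), beside 11.9% and 9.04%. The share of more positive changes was thus near that of all genes. The change from day 1 to day 2 was largest for Cnn2, at 0.78 (SE 0.175, adjusted P = 0.00154), and next for Cald1, at 0.61 (SE 0.073, adjusted P = 4.06e-07). The change from day 2 to day 7 was most negative for Tagln, at -1.96 (SE 0.346, adjusted P = 5.65e-05), and Tpm2, at -0.83 (SE 0.126, adjusted P = 7.11e-06). For Flna, by contrast, the difference at day 7 was not called apart from that at day 2, with -0.04 (SE 0.0947, adjusted P = 0.785), and the same held for Cald1, at -0.09 (SE 0.071, adjusted P = 0.39). These contrasts share the samples of the middle day with the comparisons above.

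The position of the C70 cells relative to the vehicle time course was compared at day 2. Of the 18 genes called lower in vehicle at day 2 than at day 1, the mean of the C70 samples at day 2 lay between the vehicle means of these 2 days for 14, at or above the vehicle mean of day 1 for 4 (Tagln, Cnn2, Flna and Actn1), and at or below the vehicle mean of day 2 for 0. This comparison shares the day 2 vehicle samples with the C70 comparison of that day and is given as a description. The 18 genes were picked through low day 2 vehicle values, which favors C70 means above them. The same counts were not made over all genes, so they cannot be read as particular to the 31 genes. A fall by day 7 was seen after C70 as well. Between days 0 and 7 of the C70 samples, 29 of the 31 genes were called lower and 1, Myh10, higher, beside 35.4% and 35.9% of all genes, and the median log2 fold change was -1.55. The Myh10 value of 0.32 was at the fold change limit. Its call was lost under quantile normalization (0.25), without the genes of lowest mean count (0.31), and without replicate 1 of the day 0 C70 samples or replicate 1, 3 or 4 of the day 7 C70 samples. The log2 fold change between these days was -3.62 in vehicle and -2.54 with C70 for Cnn2, -2.46 and -1.83 for Flna, and -5.95 and -5.94 for Acta2.

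**Figure D4:**
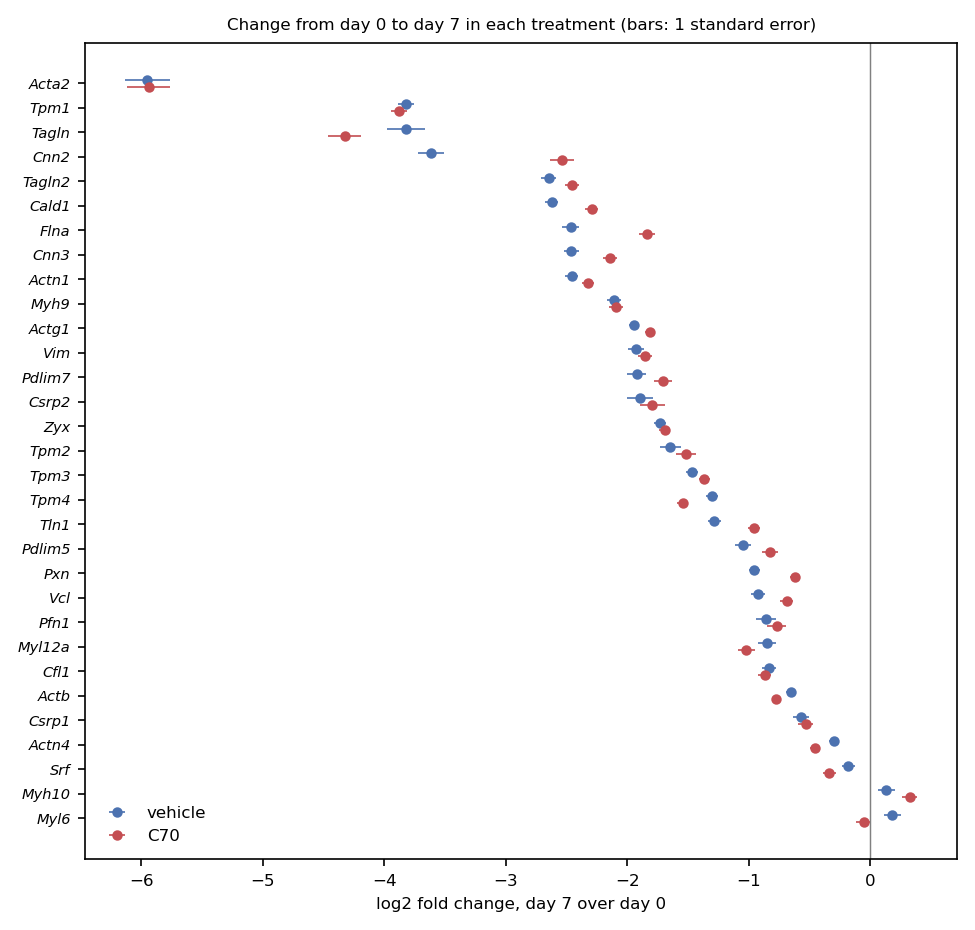
Log2 fold change from day 0 to day 7 (horizontal axis) for each of the 31 genes in vehicle (blue) and C70 samples (red), ordered by the vehicle value, with bars of 1 standard error. Acta2 is at -5.95 in vehicle and -5.94 with C70, and only Myl6 and Myh10 have a vehicle value above 0.

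Other genes of the actin cytoskeleton were examined from lists drawn up by function, but with earlier results of these data known. The shares of these lists, here and below, are therefore descriptions and not independent evidence. Of 30 further contractile, filament and adhesion genes, 6, 13, 16 and 14 (20%, 43.3%, 53.3% and 46.7%) were called higher with C70 at days 0, 1, 2 and 7 and 0, 2, 1 and 0 lower. Over all genes 5.89%, 13.6%, 16.9% and 14.3% were called higher. The median log2 fold changes of the list were 0.06, 0.23, 0.44 and 0.33. Lmod1, an actin nucleator of smooth muscle, had the largest rise of this list at day 1, at 1.80 (SE 0.27, adjusted P = 3.15e-06), and at day 2, at 2.66 (SE 0.34, adjusted P = 9.98e-08), although its vehicle level at day 2 was low, at 0.178 ± 0.0593 CPM (SD, n = 3). At day 0 the largest rise was that of Des, the muscle intermediate filament protein desmin, at 0.86 (SE 0.12, adjusted P = 3.58e-06), and at day 7 that of Fhl2, a LIM protein, at 1.17 (SE 0.106, adjusted P = 2.32e-10). The largest fall at day 2 was that of Pdlim1, which holds PDZ and LIM domains, at -0.44 (SE 0.0819, adjusted P = 4.58e-05).

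Of 25 genes that control contraction and SRF, 2, 1, 2 and 3 (8%, 4%, 8% and 12%) were called higher at days 0, 1, 2 and 7 and 0, 1, 3 and 1 lower, with medians between -0.01 and 0.07. The shares of higher calls at days 0 and 7 were near those of all genes (5.89% and 14.3%) and those at days 1 and 2 below them (13.6% and 16.9%). Mylk, the kinase that phosphorylates myosin light chains and so triggers contraction, was the exception in size. Its vehicle levels were 129 ± 8.96, 94.01 ± 8.39 and 67.3 ± 7.35 CPM at days 0, 1 and 2 (SD, n = 3) and 45.4 ± 0.543 CPM at day 7 (SD, n = 4). Its C70 levels were 205 ± 11.1, 239 ± 8.21, 199 ± 6.73 and 67.03 ± 0.948 CPM at the same days (SD, n = 4). The differences were 0.67 (SE 0.0595, adjusted P = 7.13e-10) at day 0, 1.34 (SE 0.0611, adjusted P = 6.12e-17) at day 1 and 1.56 (SE 0.0624, adjusted P = 1.28e-18) at day 2. At day 7 the largest rise of this list was that of Rnd3 at 0.57 (SE 0.0843, adjusted P = 2.26e-06), and the largest fall that of Limk1, a kinase that inactivates cofilin, at -0.34 (SE 0.0506, adjusted P = 2.94e-06). Diaph3, a formin, had the largest fall at day 1, at -0.39 (SE 0.11, adjusted P = 0.00532), and at day 2, at -0.75 (SE 0.121, adjusted P = 5.32e-06).

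Among 29 actin turnover and branching genes, 0, 2, 5 and 4 were called higher at days 0, 1, 2 and 7 and 0, 1, 1 and 0 lower. The shares of higher calls of 17.2% at day 2 and 13.8% at day 7 were near those of all genes (16.9% and 14.3%). The largest rises were those of the monomer-binding thymosins Tmsb4x at day 1, at 0.59 (SE 0.0878, adjusted P = 2.83e-06), and Tmsb10 at day 2, at 0.82 (SE 0.14, adjusted P = 1.23e-05), and of the profilin gene Pfn2 at day 7, at 0.72 (SE 0.115, adjusted P = 7.69e-06). Cfl2, another cofilin gene, had the largest fall at days 1 and 2, at -0.38 (SE 0.0559, adjusted P = 2.17e-06) and -0.43 (SE 0.0543, adjusted P = 7.72e-08). Of 16 immediate SRF and YAP target genes, 3, 9, 10 and 5 (18.8%, 56.2%, 62.5% and 31.2%) were called higher, beside the shares of all genes given above, and 1, 0, 0 and 1 lower at the same days, with medians of 0.16, 0.34, 0.41 and 0.21. Ccn2, a secreted matrix protein and standard YAP target, had the largest rise at days 0, 1 and 2, at 0.79 (SE 0.234, adjusted P = 0.0154), 0.87 (SE 0.337, adjusted P = 0.039) and 0.89 (SE 0.33, adjusted P = 0.0249), from vehicle levels of 3.33 ± 0.27, 1.04 ± 0.0788 and 1.12 ± 0.261 CPM (SD, n = 3). At day 2 its vehicle samples measured 1.30, 0.819 and 1.23 CPM and its C70 samples 4.32, 1.35, 1.14 and 1.33 CPM. The day 2 groups thus overlapped, and the C70 sample of 4.32 CPM stood apart from the others. At day 7 Axl, a receptor tyrosine kinase, was highest at 0.82 (SE 0.0582, adjusted P = 1.83e-12). Tgfb2, a secreted growth factor, had the largest fall at day 0, at -0.40 (SE 0.0717, adjusted P = 0.000136).

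Markers of cell types also differed between C70 and vehicle samples, and their part in the differences above was not tested. The summed level of 4 preadipocyte markers at day 2 ranged from 654.8 to 679 CPM in vehicle and from 999 to 1075 CPM with C70, and 2, 3, 3 and 4 of them were called higher at days 0, 1, 2 and 7. At day 7 the sum ranged from 348 to 480.1 CPM in vehicle and from 753 to 881 CPM with C70. Thy1 had the largest rise of them at day 2, at 2.69 (SE 0.144, adjusted P = 9.62e-16), and at day 7, at 1.39 (SE 0.124, adjusted P = 1.9e-10), and Ly6a at days 0 and 1, at 1.33 (SE 0.11, adjusted P = 1.6e-10) and 2.02 (SE 0.115, adjusted P = 8.33e-15). The summed level of the 7 adipocyte markers at day 2 ranged from 20180 to 21040 CPM in vehicle and from 11800 to 12930 CPM with C70, and 6 of 7 were called lower at days 1 and 2. Adipoq had the largest fall at day 1, at -1.22 (SE 0.121, adjusted P = 1.74e-09), and Fabp4, the fatty acid carrier of adipocytes, at day 2, at -0.98 (SE 0.0754, adjusted P = 3.28e-12). At day 7 the adipocyte sums were 21460 to 24590 CPM in vehicle and 23340 to 25710 CPM with C70, and 2 of 7 were called higher, with Adipoq at 0.35 (SE 0.0733, adjusted P = 0.000318). At day 0 there were 2 called lower, with Pparg, the master regulator of adipogenesis, at -0.50 (SE 0.0573, adjusted P = 1.1e-07), and 1 called higher, Cebpa at 0.39 (SE 0.106, adjusted P = 0.00842).

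Of 6 smooth muscle markers, Lmod1, Smtn and Des were analysed, and the defining genes Myh11 and Myocd were not analysed here. Their sum at day 2 ranged from 23.8 to 25.5 CPM in vehicle and from 56.97 to 63.6 CPM with C70, and 2, 3, 3 and 2 of 3 were called higher at days 0, 1, 2 and 7. Smtn, which encodes the stress fiber protein smoothelin, had the largest rise at day 7, at 0.79 (SE 0.08, adjusted P = 2.09e-09). Of 4 macrophage markers only Cd68 was analysed, a lysosomal protein that fibroblasts also express. It rose with C70 by 3.85 (SE 0.148, adjusted P = 2.17e-18) at day 0, 2.90 (SE 0.142, adjusted P = 3.26e-16) at day 1 and 2.06 (SE 0.159, adjusted P = 4.03e-12) at day 2, from vehicle levels of 1.31 ± 0.309, 1.88 ± 0.132 and 1.59 ± 0.226 CPM (SD, n = 3), and gave -0.31 at day 7, which was not called.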

How the data were processed

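RNA was sequenced from 3T3-L1 cells in 29 samples of 8 groups. The authors aligned reads to GRCm38 with Ensembl release 97 by STAR 2.7.2a and deposited counts per gene, whole numbers with no scaling between samples, for 11959 genes. The submitters' processing notes name edgeR 3.26.8. The counting program, its strand setting and the filter on low genes are not given in the sources used here. Every gene had a CPM above 1 in at least 20 samples. Libraries were strand-specific. Symbols, exon lengths and positions came from GENCODE M21, which is another release than the authors used.

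The quasi-likelihood test of edgeR 4.0.16 (R 4.3.3), two-sided, was then applied here to all 8 groups as means with no covariate, after TMM scaling, for which the factors lay between 0.898 and 1.08. Benjamini-Hochberg adjustment covered all 11959 genes of a comparison. A gene was called at adjusted P values under 0.05 if its fold change exceeded 1.25, which is 0.32 on the log2 scale. Replicates differed by more than counting noise, with a chi-square per degree of freedom between 2.66 and 46.9 over 39 pairs. Each was counted as a sample, although such a spread does not show that replicates came from separate cultures. The test was run before use on simulated counts in which few genes changed, in a single group and by more than the fold change limit. Far more genes differed in these data, so that run does not show how the test performs on them.

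The 31 genes and all other lists were chosen with earlier results of these data known, so their counts are descriptions. All 31 genes were named. Sample values were given for those called with C70 on any day and with a mean CPM above the median of all genes (32.4), and for those with the largest and smallest change from day 0 to day 7 in vehicle. From each other list the largest called rise and fall of each day was named. Of these, 2 genes are not reported here. Alternatives were size factors by relative log expression, quantile normalization with limma 3.58.1 (voom), removal of the genes of lowest mean count, DESeq2 1.42.0, other thresholds, the groups of a comparison alone with and without a replicate block, and leaving out libraries. Promoter windows were those of RefSeq on GRCm38.p6. Python 3.11.15, pandas 2.3.3 and matplotlib 3.10.9 served for tables and plots.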

Additional observations from a re-analysis of the deposited data

Results flagged for a closer look

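Among the 155 groups of 4 samples of the 31 genes, 15 held a sample whose gap to its nearest neighbor exceeded Dixon's 95% critical value for 4 samples, where chance alone flags about 1 in 20, or 7.75. Of the 15, 6 were in replicate 1 of the day 7 vehicle samples, with Acta2 at 16.1 CPM, Myl6 at 357 CPM, Vcl at 183 CPM, Flna at 285 CPM, Tln1 at 202 CPM and Cfl1 at 593 CPM. Acta2, Myl6 and Cfl1 were the highest of their group there, and Vcl, Flna and Tln1 the lowest. In the day 7 C70 samples, Actn1 was at 118 CPM in replicate 4, Zyx at 161 CPM in replicate 3 and Cald1 at 293 CPM in replicate 2. In the day 2 C70 samples, Myh9 was at 566 CPM in replicate 2 and Vcl at 257 CPM in replicate 3. In the day 1 C70 samples, Cnn2 was at 33.2 CPM in replicate 3, Flna at 626.5 CPM in replicate 2, Actn4 at 275 CPM in replicate 1 and Pxn at 133 CPM in replicate 4.

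The difference between C70 and vehicle changed between consecutive days for 18 of the genes by the interaction contrast in edgeR's quasi-likelihood test. This total over the contrasts was not counted for all genes, so it has no background share and is a description only. The shares for each contrast are given above. From day 0 to day 1 the log2 difference changed by 1.44 for Tagln, 0.64 for Cnn2, 0.60 for Csrp1, 0.45 for Tpm2, 0.44 for Csrp2, 0.35 for Pxn and -0.33 for Tagln2. From day 1 to day 2 it changed by 0.78 for Cnn2, 0.61 for Cald1, 0.52 for Tagln2, 0.51 for Tpm2, 0.41 for Actn1, 0.39 for Flna, 0.38 for Tpm3, 0.38 for Pfn1, 0.38 for Csrp2 and 0.36 for Actg1. From day 2 to day 7 it changed by -1.96 for Tagln, -0.83 for Tpm2, -0.71 for Csrp2, -0.54 for Actn1, -0.51 for Tpm4, -0.46 for Zyx and -0.33 for Csrp1, and by 0.56 for Vcl, 0.54 for Cnn3 and 0.54 for Myh10. The Tagln2 change from day 0 to day 1 was under the fold change limit without the genes of lowest mean count, and without replicate 3 of the day 0 or of the day 1 vehicle samples or replicate 1 or 2 of the day 1 C70 samples, with values from -0.32 to -0.30. The Pfn1 change from day 1 to day 2 lost its call without replicate 2 or 3 of the day 1 vehicle samples or replicate 2 of the day 2 vehicle samples, with values from 0.33 to 0.36 (adjusted P up to 0.0748). The Csrp2 change from day 1 to day 2 was no longer called under quantile normalization (0.33, adjusted P = 0.054) or when a single library was left out, namely vehicle replicate 2 or 3 or C70 replicate 1 or 2 of day 1, or vehicle replicate 1 or 2 or C70 replicate 2, 3 or 4 of day 2, with values from 0.30 to 0.38. The Csrp1 change from day 2 to day 7 was under the fold change limit in 7 other settings, and without vehicle replicate 2 or C70 replicate 1 or 4 of day 2, or vehicle replicate 1 or 4 or C70 replicate 3 of day 7, with values from -0.32 to -0.27.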

How the results depend on the processing

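The number of the 31 genes called with C70 was 2, 7, 16 and 6 at days 0, 1, 2 and 7. At day 0 it was 1 after quantile normalization, 0 when the genes of lowest mean count were left out, which removes Tagln, 1 with the groups of the comparison alone, and 1 to 2 when each library was left out in turn. On the adjusted P value alone the counts were 8 at day 0, 16 at day 1 and 18 at day 7, and for the change of the C70 difference from day 0 to day 1 the count was 12 in place of 7. With a fold change over 1.5 they were 1, 2, 7 and 2 at days 0, 1, 2 and 7, and 3, 2 and 3 for the changes of the difference from day 0 to 1, 1 to 2 and 2 to 7, in place of 7, 10 and 10. Other counts of calls in both directions together stayed within 1.5 times of the stated ones under every alternative run. By direction, the 2 genes lower with C70 at day 2 became 5 on the adjusted P value alone, 0 with a fold change over 1.5, and 1, through the loss of Vcl, in the settings named for that gene, and the 0 lower at day 1 became 4 on the adjusted P value alone and 1 under quantile normalization. The 0 lower at day 0 became 1 (Pxn) and the 0 lower at day 7 became 3 (Tpm4, Actn4 and Srf), both on the adjusted P value alone. Without replicate 1 of the day 7 vehicle samples and replicate 2 of the day 7 C70 samples together, 8 genes were called at day 7, Acta2 (0.86) and Cnn3 (0.39) being added. CArG boxes with 1 mismatch were present in 8 genes in place of 5. Replicate numbers did not pair the samples, with correlations of same-numbered deviations between -0.205 and 0.214, and a replicate block gave 2, 8, 17 and 6 calls. In the comparisons of C70 with vehicle, fold changes of called genes kept their direction in all settings, and kept the call 1132 times and lost it 43 times. Most of these settings left out a single library, often one of another day, and the adjusted P value alone cannot lose a call. The counts are therefore no measure of how robust the calls are. In the vehicle time course, calls near the limits were lost for Tagln2 (RLE, quantile normalization, DESeq2, or without day 0 vehicle replicate 2 or day 1 vehicle replicate 1) and Pfn1 (quantile normalization, or without day 1 vehicle replicate 1) at day 1, for Tagln at day 2 (-0.64 and -0.67, without day 1 vehicle replicate 1 and day 2 vehicle replicate 3), and for Pxn (without day 7 vehicle replicate 1) and Tpm3 (without any of 5 libraries) at day 7 against day 2. Cfl1 at day 7 against day 2, at -0.27 with all samples, gained a call without day 7 vehicle replicate 1 (-0.34). Quantile normalization called it too (-0.41). Actn4 at day 7 against day 0 gained a call under quantile normalization (-0.44), without day 7 vehicle replicate 4 (-0.33) and in other settings. Some settings also called Cfl1 lower at day 1 and Actb, Tpm1 and Csrp1 lower at day 2 against day 1. In C70 samples, the Srf call at day 7 against day 0 was lost without day 0 C70 replicate 1 (-0.31). Low levels, as of Tagln and Acta2 after day 0, limit the precision of their fold changes.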
